A study of Mus musculus with 24 samples.

Results

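The expression of 34 genes of the lysosome, the acidic compartment in which cells break down proteins, sugars, lipids and nucleic acids, was examined in cultured mouse macrophages. The genes were chosen by symbol in the annotation of the arrays' probe sets, and each was represented by the probe set with its symbol alone that had the highest mean over all 24 arrays. They were 34 of the 18193 genes tested. By role they comprised 12 proteases (Ctsa, Ctsb, Ctsc, Ctsd, Ctsf, Ctsh, Ctsk, Ctsl, Ctss, Ctsz, Tpp1 and Lgmn), 7 glycosidases (Hexa, Gaa, Gla, Glb1, Gusb, Neu1 and Man2b1), 4 genes of lipid breakdown and export (Lipa, Psap, Npc1 and Npc2), 4 lysosomal membrane proteins (Lamp1, Lamp2, Scarb2 and Cln3), 5 genes of the proton pump (Atp6v1a, Atp6v1h, Atp6v0d1, Atp6v0d2 and Atp6ap1), the transcription factor Tfeb and the acid phosphatase Acp5.

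Lysosomal hydrolases are made in the secretory pathway, are sorted to the lysosome largely by mannose 6-phosphate receptors, and work at the low pH that the vacuolar ATPase maintains by pumping protons. In macrophages they digest ingested bacteria and dead cells, and cathepsins such as Ctss and Ctsl also trim the proteins that are presented on MHC class II. Tfeb, a factor held in the cytoplasm in fed cells, activates many genes of this set through a DNA element that contains the letters CACGTG. Ctsk, Acp5 and Atp6v0d2 are best known from osteoclasts, the bone-resorbing relatives of macrophages, and are also made by macrophages.

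The macrophages were grown from bone marrow of male mice, all carrying the Il10 knockout allele Il10tm1Cgn and so lacking an anti-inflammatory cytokine, controls included. Group B6 was C57BL/6J, which resists colitis, and group C3Bir was C3H/HeJBir, which is susceptible. BC-R3 is a congenic line on B6 that carries Cdcs1, a colitis locus on chromosome 3, in its C3Bir form. CB-R1 is the reverse congenic line, on C3Bir, whose Cdcs1 lies in a long chromosome 3 segment of B6 origin. Cells of 3 mice per genotype were grown for 6 days and received either medium alone or, for the last 4 h, 1 µg/mL of the commensal flagellin CBir, and the RNA of 3 wells was pooled. The 4 strains and both conditions gave 8 groups of 3 arrays. The labels do not say which mouse an array number stands for, so p-values measure the spread between arrays, and the number of arrays limits the precision. In RNA from whole cultures, fewer cells of a type and less RNA per cell cannot be told apart.

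Arrays of a group correlated at 0.987 to 0.998, yet some stood apart. For 14 cytokine genes the array's mean log2 value reached 10.43 and 10.49 on B6 unstimulated arrays 2 and 3. It reached 8.96 and 8.87 on those of C3Bir, while the remaining 20 arrays lay between 6.90 and 8.36. All 4 are labelled unstimulated, yet their cytokine values exceeded those of every flagellin array, of which the highest was 8.08. Array 1 of unstimulated B6 (8.23) and of unstimulated BC-R3 (8.36) also lay above that value. The main results that rest on the 4 arrays are given with and without them. Leaving them out reduces the unstimulated groups of B6 and C3Bir to 1 array each, which is assumed to vary like the arrays of the other groups, so few differences can then pass and a lost call alone shows little. The size of the difference is therefore given beside it. The unstimulated B6 array that remains, array 1, was itself high in interferon-stimulated genes. The mean of 13 such genes was 11.97 on it and 12.89 on each of arrays 2 and 3. Outside unstimulated B6 the highest was 11.71, on BC-R3 unstimulated array 1. The comparisons of unstimulated B6 with C3Bir, with BC-R3 and with its own flagellin arrays share the same 3 B6 arrays. Array 1 of these unstimulated groups differed from its group, at 8.23 in B6 and 7.22 in C3Bir, and so did array 1 of unstimulated BC-R3, at 8.36 against 7.20 and 7.09. Of 10 macrophage markers, Csf1r gave 13.48 to 13.97, Lyz2 14.04 to 14.44, Itgam 9.18 to 11.09, Fcgr1 9.85 to 12.14 and Mertk 7.78 to 10.14, and the mean over all 10 was 12.32. The upper quartile of an array was 8.05 to 8.22, above the lowest value of Mertk. The values carry no call of detection. The lower quartile of an array was 5.29 to 5.42, and all 34 genes lay above it on every array.

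Promoter sequences of the genes were taken from RefSeq (GRCm38.p6), as 250 bases before to 50 bases after each start, and 29 of the 34 genes were found there with 37 promoters. Atp6v0d2, Atp6v1h, Ctsb, Ctsh and Npc1 had no entry. The hexamer CACGTG stood in 12 of the 37 promoters (32.4%), against 7.15% of all 32851 promoters in the table, and the octamer TCACGTGA in 6 of 37 (16.2%), against 0.974%. Both motifs are palindromes, so a match reads the same on either strand, and the octamer holds the hexamer. The octamer windows are shown because they hold the letters of the element through which Tfeb is known to act, with the octamer in capitals, each 30 bases long and read 5′ to 3′ on the gene's strand. They lie at chr8:105566050-105566079 (minus strand) for Atp6v0d1, chr16:44139373-44139402 (minus) for Atp6v1a, chr7:126583340-126583369 (minus) for Cln3, chr2:164833749-164833778 and chr2:164833766-164833795 (plus) for Ctsa, chr7:142387908-142387937 (minus) for Ctsd, and chrX:134601215-134601244 and chrX:134601182-134601211 (minus) for Gla.
Atp6v0d1: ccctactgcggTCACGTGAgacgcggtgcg
Atp6v1a: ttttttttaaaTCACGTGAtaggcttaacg
Cln3: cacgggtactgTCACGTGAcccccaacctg
Ctsa, first match: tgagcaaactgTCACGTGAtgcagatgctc
Ctsa, second match: gatgcagatgcTCACGTGAccagagctaca
Ctsd: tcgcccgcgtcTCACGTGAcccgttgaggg
Gla, first match: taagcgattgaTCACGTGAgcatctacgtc
Gla, second match: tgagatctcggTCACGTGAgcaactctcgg
For comparison, the 120 bases before the start are shown for Ctsk (chr3:95499090-95499209, plus) and Man2b1 (chr8:85083149-85083268, plus), whose levels differed most between the genetic backgrounds below and whose 300-base windows hold neither motif, so no base is in capitals.
Ctsk: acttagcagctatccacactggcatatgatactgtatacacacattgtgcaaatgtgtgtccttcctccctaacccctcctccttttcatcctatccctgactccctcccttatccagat
Man2b1: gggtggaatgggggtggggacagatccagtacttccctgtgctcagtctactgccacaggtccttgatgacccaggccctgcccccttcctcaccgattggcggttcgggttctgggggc
A match describes these letters and is no evidence of binding, and a missing match says only that the letters are not in this window.

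Across the 24 arrays the 34 genes differed in how much they moved. Acp5 had the widest range, 2.71 on the log2 scale, followed by Ctsk at 1.61, Atp6v0d2 at 1.40 and Man2b1 at 1.24. The narrowest ranges were those of 0.25 for Psap, 0.26 for Ctsb and 0.27 for Ctsd. The mean over all 34 genes stayed between 11.75 and 12.12.

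**Figure D1:**
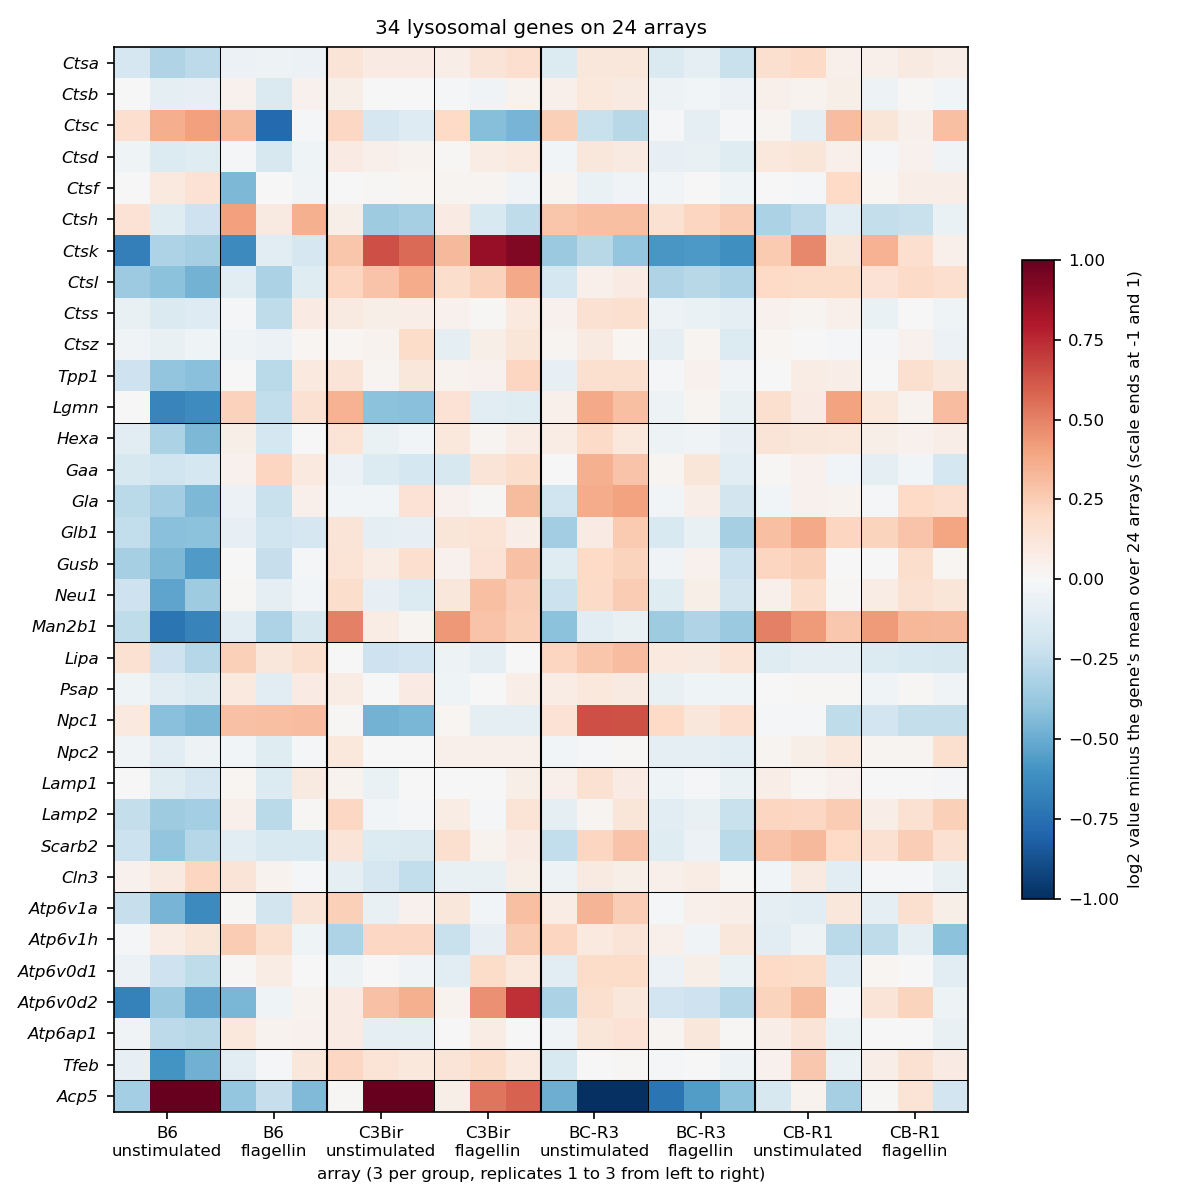
Each row is a lysosomal gene, ordered by role, and each column an array in its group of 3; colour gives the log2 value minus the gene's mean over 24 arrays, on a scale that ends at -1 and 1. Unstimulated B6 arrays 2 and 3 are blue for most genes, Ctsk, Ctsl and Man2b1 split by background, and Acp5 is above the scale on unstimulated arrays 2 and 3 of B6 and C3Bir and below it on those of BC-R3.

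The clearest difference among these genes lay between the genetic backgrounds. Averaged over both Cdcs1 alleles and both conditions, 16 of the 34 were higher and 5 were lower in the C3Bir background (C3Bir and CB-R1, 12 arrays) than in the B6 background (B6 and BC-R3, 12 arrays), with limma at an adjusted p under 0.05. Of all genes tested, 16.6% were higher and 10.6% lower. The median difference over the 34 genes was 0.10, against 0.02 over all genes. The fit without the 4 high-cytokine arrays gave 14 higher and 4 lower, and leaving out any single array gave 20 to 22 changed genes. The fit took the 12 arrays of a background as independent, but each genotype had 3 mice, whose cells may be on arrays of both conditions. Unstimulated and flagellin arrays of the same number deviated together in all 3 pairs of C3Bir and of CB-R1. In B6 and in BC-R3 this held for 1 of 3 pairs. The SE and p-values of this comparison may therefore be too small.

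The largest of these differences was in Ctsk, a cysteine protease that cleaves collagen. Its log2 values were 7.80, 8.17 and 8.15 on unstimulated and 7.84, 8.37 and 8.31 on flagellin arrays of B6, and 8.11, 8.20 and 8.09 and 7.90, 7.91 and 7.87 in BC-R3. In C3Bir they were 8.76, 9.13 and 9.05 unstimulated and 8.81, 9.35 and 9.40 with flagellin, and in CB-R1 8.75, 8.96 and 8.60 and 8.82, 8.65 and 8.53. All 12 arrays of the C3Bir background lay above all 12 of the B6 background. The difference was 0.84 ± 0.08 (SE), a fold of 1.79 (limma adjusted p = 4.57e-08). Ctsk has a single probe set with its symbol alone.

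Ctsl, a cysteine protease of antigen processing, also separated the backgrounds on the probe set used. The values were 13.29, 13.24 and 13.18 (unstimulated) and 13.54, 13.34 and 13.53 (flagellin) in B6 and 13.48, 13.71 and 13.73 and 13.35, 13.37 and 13.34 in BC-R3. They were 13.87, 13.94 and 14.03 and 13.83, 13.88 and 14.03 in C3Bir, and 13.85, 13.84 and 13.84 and 13.80, 13.84 and 13.82 in CB-R1. The 12 and 12 arrays did not overlap, and the difference was 0.46 ± 0.04 (limma adjusted p = 5.38e-09). A second Ctsl probe set, with a mean of 6.84, ran the other way, at -1.11 (unadjusted p = 3.71e-11), and the mean of both gave -0.33. The direction for Ctsl therefore depended on the probe set, and why they disagreed was not tested.

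Ctsh, an aminopeptidase, was the 1 protease that was lower in the C3Bir background. Its B6 values were 12.16, 11.89 and 11.80 unstimulated and 12.42, 12.10 and 12.37 with flagellin, and its BC-R3 values 12.29, 12.31 and 12.31 and 12.16, 12.22 and 12.26. C3Bir gave 12.06, 11.66 and 11.68 and 12.09, 11.86 and 11.75, and CB-R1 11.69, 11.75 and 11.91 and 11.77, 11.78 and 11.94. The backgrounds overlapped, and the difference was -0.36 ± 0.06 (limma adjusted p = 5.58e-05), with a second probe set at -0.45. Ctsa, the carboxypeptidase that also protects Glb1 and Neu1, was higher by 0.21 ± 0.03, Tpp1, a tripeptidyl peptidase, by 0.16 ± 0.04, and Ctsd, the main aspartic protease, by 0.10 ± 0.03. A second Ctsa probe set, with a mean of 7.93, ran the other way, at -0.12 (limma unadjusted p = 0.00133). When the 4 high-cytokine arrays were left out, Tpp1 (0.14, adjusted p = 0.0842) and Ctsd (0.09, adjusted p = 0.0722) no longer passed.

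Ctss, a protease of MHC class II processing, did not pass. It gave 13.83, 13.76 and 13.77 and 13.89, 13.65 and 13.99 in B6, 13.95, 14.06 and 14.06 and 13.86, 13.84 and 13.81 in BC-R3, 13.99, 13.97 and 13.98 and 13.95, 13.92 and 14.001 in C3Bir, and 13.95, 13.93 and 13.96 and 13.84, 13.90 and 13.86 in CB-R1, unstimulated arrays first. The arrays of the backgrounds overlapped, and the difference was 0.07 ± 0.03 (95% interval -0.0019 to 0.13, adjusted p = 0.15). Ctss and Ctsk are next to each other on chromosome 3, with 0 protein-coding genes between them in the RefSeq gene table, and both belong to the chromosome that carries Cdcs1. Whether the transferred segments reach them was not examined. Ctsb, Ctsc, Ctsf, Ctsz and Lgmn did not pass either, with differences from -0.01 (Ctsc) to 0.09 (Lgmn).

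Of the 7 glycosidases 5 were higher in the C3Bir background. Man2b1, the lysosomal alpha-mannosidase, gave 12.25, 11.77 and 11.84 and 12.40, 12.20 and 12.35 in B6 and 12.09, 12.40 and 12.43 and 12.15, 12.20 and 12.14 in BC-R3, unstimulated arrays first. It gave 13.01, 12.58 and 12.53 and 12.94, 12.79 and 12.74 in C3Bir and 13.01, 12.93 and 12.78 and 12.93, 12.84 and 12.83 in CB-R1. All 12 arrays of the C3Bir background were higher than all 12 of the B6 background, by 0.64 ± 0.06 on average, a fold of 1.56 (limma adjusted p = 1.12e-07), and a second probe set gave 0.59. Glb1, a beta-galactosidase, was higher by 0.35 ± 0.06, with arrays of the C3Bir background between 10.04 and 10.53 (median 10.31) and those of the B6 background between 9.71 and 10.39 (median 9.95). Gusb (beta-glucuronidase), Neu1 (sialidase) and Hexa (a subunit of beta-hexosaminidase) were higher by 0.25, 0.20 and 0.13. Gusb gave 12.52, 12.45 and 12.55 unstimulated and 12.42, 12.53 and 12.68 with flagellin in C3Bir. Gla (alpha-galactosidase, 0.14, adjusted p = 0.0956) and Gaa (the glycogen-degrading alpha-glucosidase, -0.08, adjusted p = 0.193) did not pass.

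Thus Ctsk, Ctsl and Man2b1 were the genes of this set whose 12 and 12 arrays did not overlap, all higher in the C3Bir background, Ctsl on the probe set used but not on its other one. Of all genes 1.51% were without overlap in that direction and 1.23% in the other, in which 0 of the 34 were. The 12 arrays of a background may share mice between the conditions, and so may hold fewer independent samples.

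**Figure D2:**
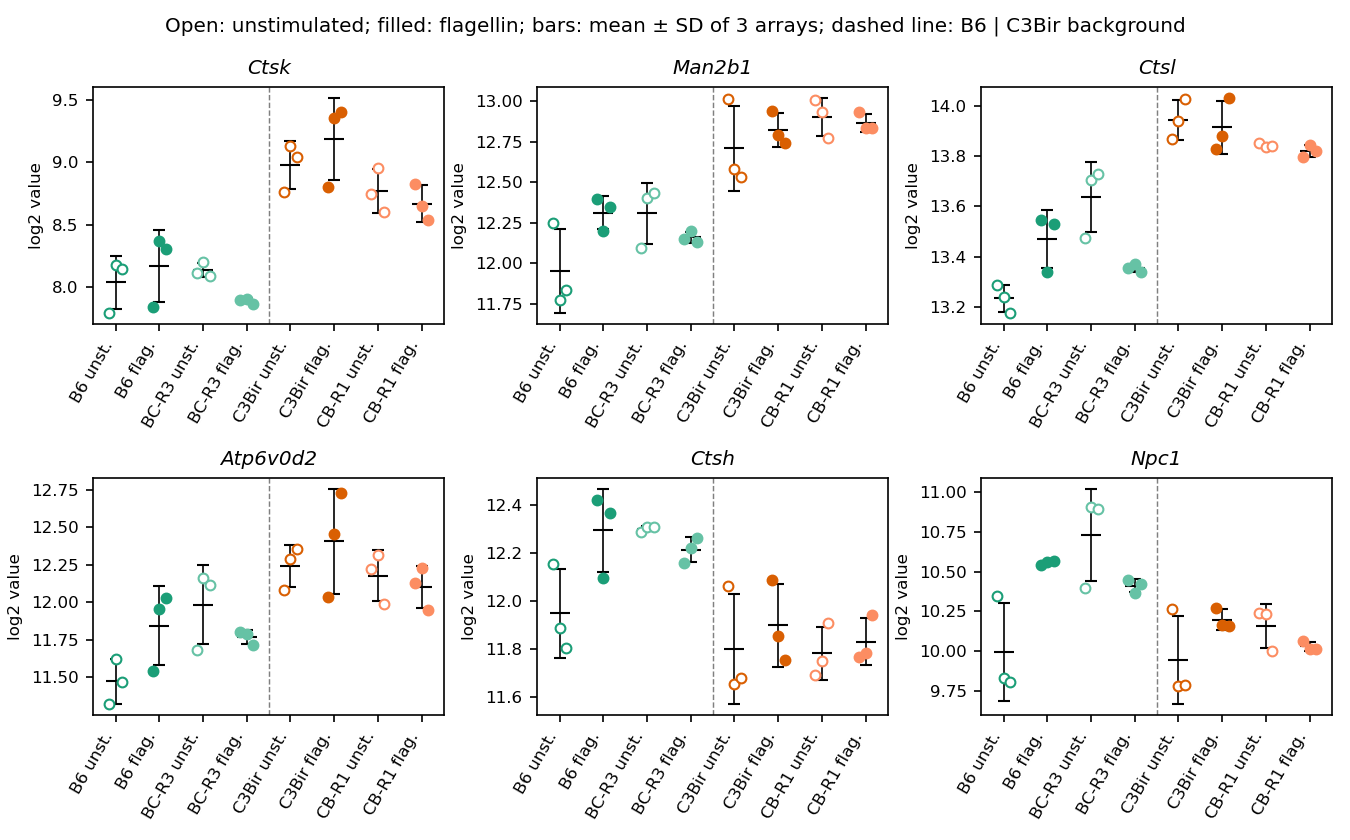
Log2 values of 6 genes on each array, with groups on the x axis (open points unstimulated, filled points flagellin, bars the mean ± SD of 3 arrays) and a dashed line between the B6 and C3Bir backgrounds. Ctsk, Man2b1 and Ctsl (on the probe set used, the other being lower) do not overlap across the line, Atp6v0d2, Ctsh and Npc1 do.

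Lipid genes went both ways. Npc1, which exports cholesterol from the lysosome, and Lipa, the acid lipase that releases it, were lower in the C3Bir background, at -0.34 ± 0.07 and -0.22 ± 0.04, with limma adjusted p = 0.00101 and 0.000398. Their cholesterol-binding partner Npc2 was higher by 0.11 ± 0.03. Psap, the precursor of the saposins, showed 0.02 ± 0.03 and did not pass. On the probe set used Lipa gave 13.16 to 13.75 (median 13.58) on arrays of the B6 background and 13.23 to 13.45 (median 13.33) on those of the C3Bir background, with overlap. Its other probe sets gave -0.20 and -0.19. Npc1 gave 10.26, 9.78 and 9.79 (unstimulated) and 10.27, 10.16 and 10.16 (flagellin) in C3Bir, and 10.24, 10.24 and 10.002 and 10.06, 10.02 and 10.01 in CB-R1. Its values in B6 and BC-R3 follow below, and the backgrounds overlapped.

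Of the membrane proteins Lamp2, an abundant glycoprotein of the limiting membrane that also serves chaperone-mediated autophagy, was higher by 0.25 ± 0.04, and Scarb2, the sorting receptor of glucocerebrosidase, by 0.25 ± 0.05. For Lamp2 the probe sets disagreed, with a second at 0.15 and others at -0.20 and -0.25. Cln3, the protein lost in juvenile Batten disease, was lower, at -0.12 ± 0.03, and did not pass without the 4 high-cytokine arrays (-0.08, adjusted p = 0.163). Lamp1 did not pass. Its values were 13.59, 13.47 and 13.42 and 13.61, 13.45 and 13.68 in B6, 13.64, 13.74 and 13.67 and 13.55, 13.57 and 13.52 in BC-R3, 13.62, 13.52 and 13.59 and 13.60, 13.60 and 13.65 in C3Bir, and 13.66, 13.61 and 13.63 and 13.58, 13.59 and 13.58 in CB-R1, unstimulated first. The arrays of the backgrounds overlapped, and the 95% interval of the difference between them was -0.04 to 0.09.

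In the proton pump 1 of the alternative forms of the d subunit passed and the other did not. Atp6v0d2, the form known from osteoclasts and some macrophages, gave 11.33, 11.62 and 11.47 and 11.54, 11.96 and 12.03 in B6, 11.68, 12.16 and 12.11 and 11.81, 11.79 and 11.71 in BC-R3, 12.08, 12.29 and 12.35 and 12.03, 12.45 and 12.73 in C3Bir, and 12.22, 12.32 and 11.99 and 12.13, 12.23 and 11.95 in CB-R1, unstimulated arrays first. The backgrounds overlapped, and it was higher in C3Bir background by 0.46 ± 0.08 (adjusted p = 0.000143), with a second probe set at 0.45. Atp6v0d1, the form found in most tissues, gave 11.90, 11.75 and 11.70 and 11.97, 12.03 and 11.95 in B6, 11.85, 12.14 and 12.14 and 11.90, 12.01 and 11.89 in BC-R3, 11.90, 11.96 and 11.92 and 11.84, 12.14 and 12.06 in C3Bir, and 12.15, 12.14 and 11.83 and 11.98, 11.96 and 11.85 in CB-R1. It overlapped between the backgrounds and did not pass, at 0.04 ± 0.05 (95% interval -0.06 to 0.14). Whether the genes differ from each other in this was not tested.

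Atp6v1h, a regulatory subunit, was lower, at -0.19 ± 0.06 (adjusted p = 0.0327). Its call was lost in 9 of the 24 fits that left out an array, namely B6 unstimulated 3, B6 flagellin 1, C3Bir unstimulated 1, C3Bir flagellin 1 and 2, BC-R3 unstimulated 1, BC-R3 flagellin 3, CB-R1 unstimulated 3 and CB-R1 flagellin 3, and the highest adjusted p among them was 0.0651. Atp6v1a, the catalytic subunit (0.10), and Atp6ap1, an accessory protein (0.0032), did not pass. Tfeb gave 9.54, 9.02 and 9.14 and 9.51, 9.60 and 9.73 in B6, 9.47, 9.63 and 9.64 and 9.60, 9.63 and 9.57 in BC-R3, 9.83, 9.76 and 9.72 and 9.75, 9.80 and 9.72 in C3Bir, and 9.67, 9.89 and 9.55 and 9.69, 9.77 and 9.70 in CB-R1, unstimulated first. Only B6 unstimulated arrays 2 and 3 were far below the rest. Tfeb was higher in the C3Bir background by 0.23 ± 0.05 (adjusted p = 0.00163), and by 0.17 (adjusted p = 0.0195) without the 4 high-cytokine arrays.

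These calls were also counted by promoter motif, beside 16.6% higher and 10.6% lower among all genes tested. Of the 12 genes with the hexamer 4 were higher and 1 lower, of the 17 with a promoter but no hexamer 11 were higher and 1 lower, and of the 5 with no entry 1 was higher and 3 lower.

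Of the markers of other cells, only those of neutrophils moved as a whole with the background. Among all genes 16.6% were higher and 10.6% lower. All 7 measured neutrophil genes, among them Mpo, Elane and Ltf, were higher in the C3Bir background, also without the 4 high-cytokine arrays, with a median difference of 0.91. Their mean lay between 11.65 and 12.87 in the C3Bir background and between 11.11 and 12.04 in the B6 background, and the lowest value of any of them, 8.24 for Mpo, lay above the lower quartile. For osteoclasts, 2 of 9 markers were higher and 2 lower, the mean lay between 7.21 and 7.50 against 7.12 and 7.43, and Calcr, the calcitonin receptor that defines the cell, stood below the lower quartile on every array, at 4.13 to 4.37. Of 6 dendritic cell genes 2 were higher, among them Itgax by 1.12. Of 7 stromal genes 3 were higher (Col3a1 by 0.64, Dcn by 0.35 and Lum by 0.25), with a mean of 7.47 to 9.03 against 7.28 to 9.23, and of 5 T and NK cell genes 2 (Cd3d by 0.57 and Nkg7 by 0.32), with a mean of 6.10 to 6.40 against 5.94 to 6.21. The stromal median difference was 0.01. Lum, at 5.07 to 5.84, lay around the lower quartile, and Cd3d and Nkg7 reached down to 5.89 and 5.81. Of 10 macrophage genes Cd68 was higher by 0.08 and Adgre1 lower, at -0.33, and of 4 B cell genes 0 passed. The part of these markers in the lysosomal differences was not tested.

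**Figure D3:**
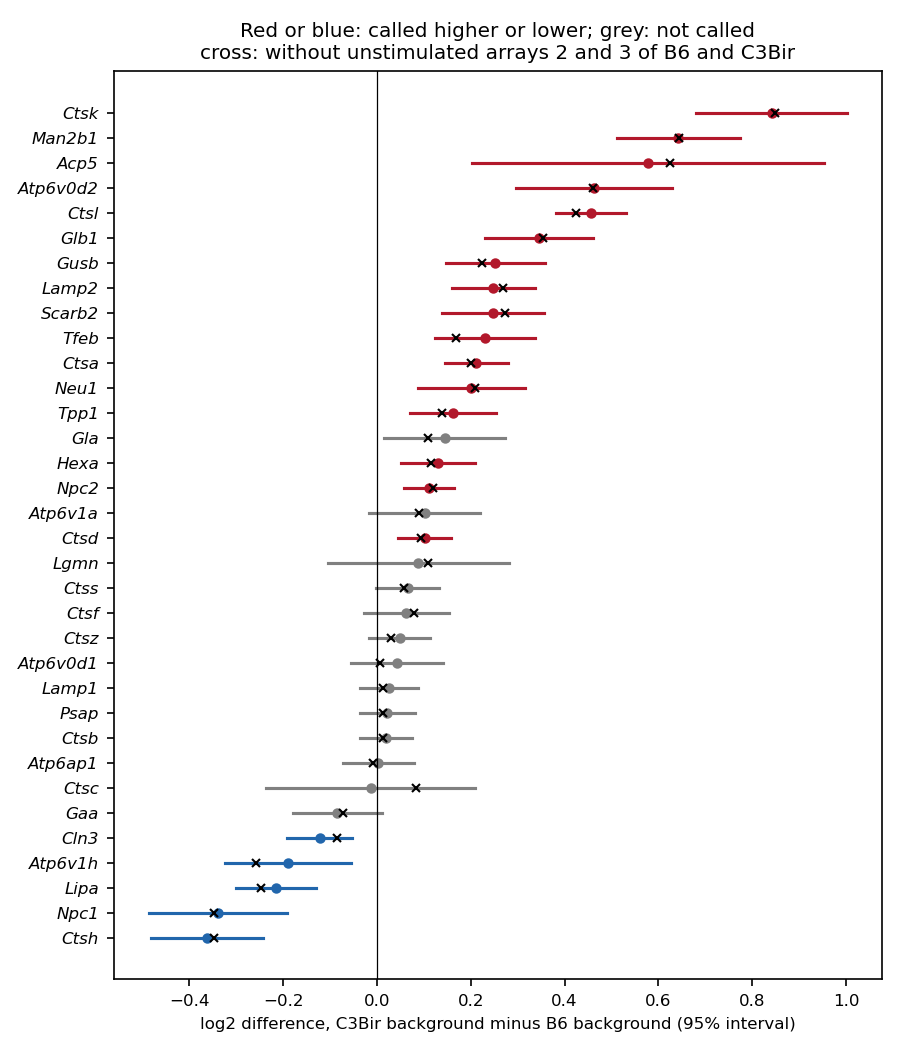
Log2 difference of each lysosomal gene, C3Bir background minus B6 background, with its 95% interval from limma (red higher, blue lower, grey not passing) and, as crosses, the difference without unstimulated arrays 2 and 3 of B6 and C3Bir. Ctsk (0.84) and Man2b1 (0.64) lead, Ctsh (-0.36) and Npc1 (-0.34) are at the other end, and the crosses lie close to the points for most genes.

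C3Bir and B6 were also compared directly, within each condition. Unstimulated, 15 genes were higher in C3Bir and 1 was lower (Cln3, -0.29 ± 0.07), against 10.4% and 6.30% of all genes. Ctsk led at 0.94 ± 0.15, followed by Atp6v0d2 at 0.77 ± 0.16, Man2b1 at 0.75 ± 0.13, Ctsl at 0.71 ± 0.07 and Gusb at 0.57 ± 0.10 (limma adjusted p between 1.13e-06 and 0.00233). The rest were Tfeb, Atp6v1a, Tpp1, Gla, Lamp2, Neu1, Glb1, Ctsa, Hexa and Ctss, at 0.53 to 0.19. The other Ctsl probe set ran the other way, at -0.58 (limma unadjusted p = 0.00288). For Gla the size depended on the probe set, with others at 2.44 (probe set mean 8.95) and 0.03 (mean 3.67). Without the 4 high-cytokine arrays, with 1 array left in each group, only Man2b1 (0.76, adjusted p = 0.0182) and Ctsl (0.58, adjusted p = 0.0334) passed. The differences themselves were of like size for Ctsk (0.96, adjusted p = 0.0787) and Atp6v0d2 (0.76, adjusted p = 0.245), and the median over the 34 genes was 0.20 against 0.18 with all arrays. Smaller differences were left for Tfeb (0.28), Gla (0.24) and Cln3 (-0.14).

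With flagellin, 4 genes were higher in C3Bir and 1 was lower, against 3.70% and 2.93% of all genes. These were Ctsk (1.02 ± 0.15, adjusted p = 0.000203), Atp6v0d2 (0.56 ± 0.16, adjusted p = 0.0359), Man2b1 (0.51 ± 0.13, adjusted p = 0.0147), Ctsl (0.44 ± 0.07, adjusted p = 0.000417) and, lower, Ctsh (-0.40 ± 0.11, adjusted p = 0.0389). None of these arrays was among the 4 high in cytokines, although the interferon-stimulated mean was 11.50, 8.96 and 9.72 on those of B6 and 10.93, 9.82 and 9.89 on those of C3Bir, and its part was not tested. The spread is estimated over all groups, and the count was 8 in the fit without the 4 high-cytokine arrays and 12 in that without array 1 of unstimulated B6, C3Bir and BC-R3. Without B6 flagellin array 1, or C3Bir flagellin array 2 or 3, 3 genes passed. Ctsk and Ctsl passed in all 6 such fits, Man2b1 in 4, Atp6v0d2 in 3 and Ctsh in 2. For Ctsl this holds on the probe set used. Its other probe set ran the other way, at -1.30 (limma unadjusted p = 2.72e-07).

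BC-R3 and B6 share their background and differ in the Cdcs1 region. Unstimulated, 25 of the 34 genes were higher in BC-R3 and 1 was lower, against 17.6% and 12.7% of all genes, with a median of 0.34 over the 34 and -0.03 over all. All 7 glycosidases were higher, as were 7 of 12 proteases, 3 of 4 lipid genes, 3 of 4 membrane proteins, 4 of 5 pump genes and Tfeb. Npc1 gave 10.40, 10.90 and 10.89 in BC-R3 and 10.35, 9.83 and 9.81 in B6, so that array 1 of each group lay close together and arrays 2 and 3 were far apart. It was higher by 0.73 ± 0.14, a fold of 1.66 (limma adjusted p = 0.00141).

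In the other leading genes array 1 of each group was again the nearest to the other group. These arrays lay close together in Lgmn, but further apart in Atp6v1a and Gusb. Lgmn, the asparaginyl endopeptidase that activates cathepsins, gave 12.92, 13.24 and 13.17 against 12.86, 12.20 and 12.24, with array 1 of B6 close to array 1 of BC-R3, and a difference of 0.68 ± 0.19 (adjusted p = 0.0107). Atp6v1a gave 12.37, 12.64 and 12.55 against 12.07, 11.83 and 11.67, without overlap, and a difference of 0.66 ± 0.11 (adjusted p = 0.000776). Gusb gave 12.26, 12.58 and 12.60 against 12.05, 11.93 and 11.81, again without overlap, and a difference of 0.55 ± 0.10 (adjusted p = 0.00113). The other genes that were higher, by 0.16 (Ctsd) to 0.55 (Gla), were Ctsa, Ctsd, Ctsh, Ctsl, Ctss, Tpp1, Hexa, Gaa, Gla, Glb1, Neu1, Man2b1, Lipa, Psap, Lamp1, Lamp2, Scarb2, Atp6v0d1, Atp6v0d2, Atp6ap1 and Tfeb. The size for Gla depended on the probe set, with others at 2.85 (probe set mean 8.95) and 0.0025 (mean 3.67). Ctsk (0.10), Ctsb, Ctsc, Ctsf, Ctsz, Npc2, Cln3 and Atp6v1h did not pass.

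These differences were smaller without the 4 high-cytokine arrays. With 1 unstimulated B6 array left, the median over the 34 genes was 0.17, and 0 of them passed with limma (11 at an unadjusted p under 0.05), while 3 of all genes passed. Without B6 unstimulated array 2 or 3, or BC-R3 unstimulated array 2, 15 passed in each case, and without BC-R3 unstimulated array 3, 13. Without B6 or BC-R3 unstimulated array 1, 26 passed in each case. Without array 1 of unstimulated B6, C3Bir and BC-R3 together the differences were larger, with a median of 0.44, and 26 genes were higher and 2 lower. In the same comparison 13 of 14 cytokine genes and 12 of 13 interferon-stimulated genes were lower in BC-R3. Of 10 macrophage markers 4 were higher, among them Itgam by 0.95, Csf1r by 0.30 and Tyrobp by 0.25. Of 9 osteoclast markers 3 were lower (Mmp9, Ocstamp and Car2), of 7 stromal markers 2 (Pdgfrb at -0.86 and Lum), of 6 dendritic cell markers 1 and of 5 T and NK cell markers 1 (Cd3e). The stromal mean was 7.88 to 9.23 on B6 and 7.45 to 7.90 on BC-R3 arrays. Without the 4 high-cytokine arrays 0 of all these genes passed, and the part of these markers in the lysosomal differences was not tested. With flagellin, where no such array is involved, 0 of the 34 passed between BC-R3 and B6, with 0 at an unadjusted p under 0.05, against 0.0165% of all genes. The median there was -0.04 and the differences ranged from -0.28 (Ctsk) to 0.14.

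**Figure D4:**
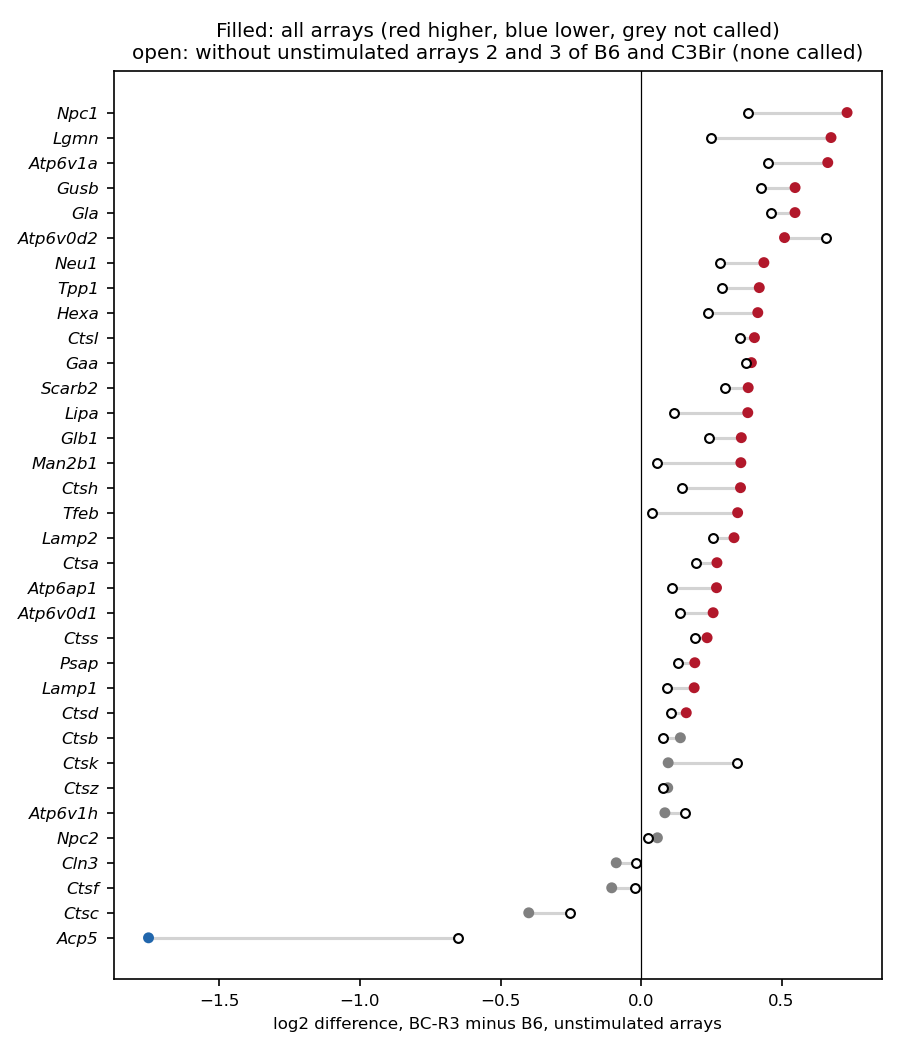
Log2 difference of each lysosomal gene between unstimulated BC-R3 and B6 arrays, with all arrays (filled, red or blue where limma's adjusted p was under 0.05) and without unstimulated arrays 2 and 3 of B6 and C3Bir (open). Npc1 moves from 0.73 to 0.38 and Acp5 from -1.75 to -0.65, and none of the open points passed the test.

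Flagellin was set against medium within each strain. In B6, 15 of the 34 genes were higher and 2 were lower on the flagellin arrays, against 12.9% and 9.49% of all genes, with a median of 0.22 over the 34 and -0.02 over all. Npc1 gave 10.54, 10.56 and 10.56 with flagellin against 10.35, 9.83 and 9.81 without, all 3 flagellin arrays being higher, and a difference of 0.56 ± 0.14 (limma adjusted p = 0.0109). Atp6v1a gave 12.31, 12.12 and 12.43 against 12.07, 11.83 and 11.67, also without overlap, and a difference of 0.43 ± 0.11 (adjusted p = 0.0131). Gusb gave 12.38, 12.15 and 12.36 against 12.05, 11.93 and 11.81 and a difference of 0.36 ± 0.10 (adjusted p = 0.0173). Tfeb, whose values are given above, overlapped between the conditions through unstimulated array 1 and was higher by 0.38 ± 0.10 (adjusted p = 0.014).

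Man2b1, Ctsh, Neu1, Gaa, Lipa, Tpp1, Atp6ap1, Hexa, Lamp2, Ctsl and Ctsa were higher by 0.36 to 0.19, and Ctsf, a cysteine protease, was lower, at -0.24 ± 0.09. Ctsf gave 7.83, 8.28 and 8.25 with flagellin against 8.28, 8.38 and 8.43 without. A second Ctsf probe set, with a mean of 8.01, ran the other way, at 0.13 (limma unadjusted p = 0.281). In this comparison 9 of 14 cytokine genes and 13 of 13 interferon-stimulated genes were lower on the flagellin arrays. Leaving out the 4 high-cytokine arrays, with 1 unstimulated B6 array left, gave a median of 0.08 over the 34 genes and calls for 0 of them (1 at an unadjusted p under 0.05) and 0 of all genes with limma (1293 at an unadjusted p under 0.05). Leaving out B6 unstimulated array 2 or 3 gave 0, leaving out flagellin array 1 gave 6 and leaving out flagellin array 3 gave 4. Leaving out B6 unstimulated array 1 or flagellin array 2 gave 18 in each case. Without array 1 of unstimulated B6, C3Bir and BC-R3 together 20 were higher and 2 lower, with a median of 0.27. The treatment and whatever set unstimulated arrays 2 and 3 apart cannot be told apart here.

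In the other strains 0 of the 34 genes passed for flagellin, against 0% of all genes in each of C3Bir, BC-R3 and CB-R1. At an unadjusted p under 0.05 there were 2 in C3Bir (Neu1 and Cln3, both higher), 11 in BC-R3 (all lower, the lowest adjusted p being that of Ctsl, 0.205, at -0.28 ± 0.07) and 0 in CB-R1, where the differences ranged from -0.13 to 0.14. For Ctsk the difference was 0.21 ± 0.15 in C3Bir (95% interval -0.11 to 0.53) and -0.10 ± 0.15 in CB-R1 (-0.42 to 0.22), intervals that include 0. Without BC-R3 unstimulated array 1 alone 4 genes passed in BC-R3, and without array 1 of unstimulated B6, C3Bir and BC-R3 together 8 passed in BC-R3 and 4 in C3Bir.

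The difference of the flagellin change between strains was tested directly. Between BC-R3 and B6, 10 of the 34 genes passed, all with a lower change in BC-R3, against 4.16% of all genes with a change that was higher and 6.38% with one that was lower. Npc1 had the largest, -0.88 ± 0.20 (limma adjusted p = 0.0198): its BC-R3 flagellin arrays gave 10.45, 10.37 and 10.42, close to unstimulated array 1 and below unstimulated arrays 2 and 3, while in B6 all flagellin arrays were above all unstimulated ones. Atp6v1a (-0.62 ± 0.16), with 12.29, 12.35 and 12.37 on BC-R3 flagellin arrays, Gusb (-0.53 ± 0.14), with 12.35, 12.43 and 12.16, and Ctsl (-0.52 ± 0.10) followed. Gaa (-0.50 ± 0.13) gave 10.18, 10.14 and 10.17 unstimulated and 10.38, 10.56 and 10.44 with flagellin in B6, without overlap, and 10.35, 10.70 and 10.63 and 10.37, 10.46 and 10.23 in BC-R3, with overlap. Lipa, Hexa, Lamp2, Ctsa and Psap completed the 10.

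This result, too, depended on single arrays. With the high-cytokine arrays left out, and so 1 unstimulated B6 array, the median over the 34 genes was -0.23 against -0.37, and 0 passed (10 at an unadjusted p under 0.05). Leaving out B6 unstimulated array 2 or 3, BC-R3 unstimulated array 2 or BC-R3 flagellin array 3 left 1, BC-R3 unstimulated array 3 left 0, and B6 flagellin array 1 or 3 or BC-R3 flagellin array 2 left 6. Without B6 unstimulated array 1, B6 flagellin array 2 or BC-R3 unstimulated array 1 there were 21, 20 and 23. Between C3Bir and B6 0 of the 34 passed (6 at an unadjusted p under 0.05), against 0% of all genes, as between CB-R1 and C3Bir (1 at an unadjusted p under 0.05), also against 0%. Without B6 unstimulated array 1, 2 passed between C3Bir and B6.

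Acp5, the tartrate-resistant acid phosphatase, had the widest range of the set. Its values were 9.55, 11.19 and 11.21 unstimulated and 9.50, 9.66 and 9.45 with flagellin in B6, and 9.90, 11.25 and 11.30 and 9.95, 10.43 and 10.48 in C3Bir. In BC-R3 they were 9.41, 8.59 and 8.70 and 9.16, 9.33 and 9.48, and in CB-R1 9.73, 9.93 and 9.56 and 9.90, 10.03 and 9.70. The highest 4 values were those of the 4 high-cytokine arrays, and the lowest 2 those of BC-R3 unstimulated arrays 2 and 3. Acp5 was lower with flagellin in B6, at -1.11 ± 0.36, with overlap through unstimulated array 1 (limma adjusted p = 0.0331) and lower in unstimulated BC-R3 than B6, at -1.75 ± 0.36 (adjusted p = 0.00193), and without the 4 arrays these differences were -0.01 and -0.65, neither of which passed. In the C3Bir background it was higher by 0.58 ± 0.18 (adjusted p = 0.0204), and by 0.62 (adjusted p = 0.000517) without them. Npc1 showed the reverse order, with its lowest 4 values, 9.78 to 9.83, on the same 4 arrays.

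**Figure D5:**
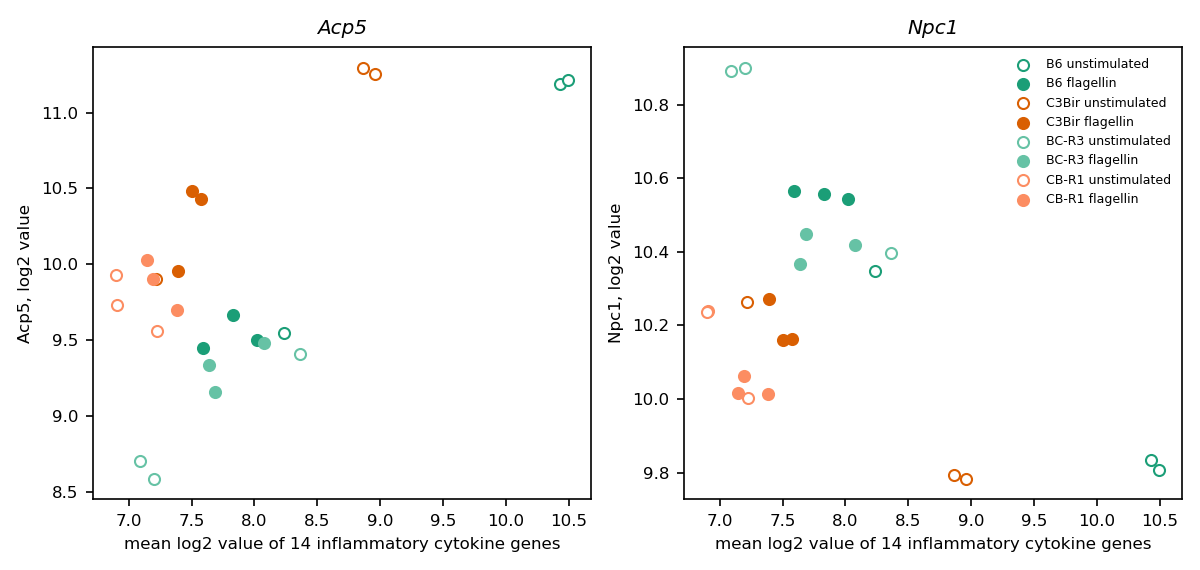
Log2 value of Acp5 (left) and Npc1 (right) on each of 24 arrays against the array's mean log2 value of 14 inflammatory cytokine genes, coloured by strain and filled for flagellin. The 4 unstimulated arrays at 8.87 or above on the x axis have the highest Acp5 (11.19 to 11.30) and the lowest Npc1 (9.78 to 9.83), and BC-R3 unstimulated arrays 2 and 3 are at the other corner.

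CB-R1 and C3Bir share their background and differ in chromosome 3 sequence around Cdcs1. Unstimulated, 0 of the 34 genes passed (4 at an unadjusted p under 0.05), against 1.01% of all genes, and with flagellin 0 passed (1 at an unadjusted p under 0.05), against 0.0550%. The closest were Scarb2, at 0.32 ± 0.10 unstimulated (adjusted p = 0.108), and Ctsk, at -0.52 ± 0.15 with flagellin (adjusted p = 0.283). Leaving out C3Bir unstimulated array 1 let 4 pass in the first comparison and leaving out C3Bir flagellin array 1 let 1 pass in the second. Averaged over backgrounds and conditions, the Cdcs1 allele gave 0 of the 34 (9 at an unadjusted p under 0.05, all higher with the C3Bir allele), against 1.30% of all genes. Atp6v1a came nearest at 0.23 ± 0.06 (adjusted p = 0.0517), and 5 genes passed without B6 unstimulated array 1 or BC-R3 unstimulated array 1. Dropping B6 flagellin array 1 or 3, C3Bir flagellin array 2 or CB-R1 unstimulated array 3 let 1 pass. The median allele difference over the 34 genes was 0.0535 with all arrays and 0.0381 without the 4 high-cytokine arrays. Ctsk, on the chromosome of the locus, showed 0.14 ± 0.08 (95% interval -0.02 to 0.30).

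Other genes of the lysosome were read from 7 lists. The share of all genes in the C3Bir background was 16.6% higher and 10.6% lower. Of 14 further pump subunits 5 were higher and 2 lower in the C3Bir background, led by Atp6v0e2, a small membrane subunit, at 2.45 ± 0.08, Atp6v0a1 at 0.48 ± 0.08 and Atp6v1e1 at -0.34 ± 0.06. Of 27 further hydrolases and activators 14 were higher and 6 lower, with Arsb, the sulfatase of dermatan sulfate, at 2.23 ± 0.05, Sgsh, the heparan sulfamidase, at 0.86 ± 0.10 and Ctse, an aspartic protease, at 0.70 ± 0.13 (SE). The differences in Arsb and Atp6v0e2 exceeded those of all 34 genes above. Each gene of the lists was read on 1 probe set, and its other probe sets were not compared. Of 16 membrane proteins and transporters 9 were higher and 2 lower, with the chloride exchanger Clcn7 at -0.89 ± 0.08, the nucleoside transporter Slc29a3 at 0.57 ± 0.08 and the sialic acid transporter Slc17a5 at 0.49 ± 0.08.

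Of 12 sorting genes 4 were higher and 2 lower, against 16.6% and 10.6% of all genes. Igf2r, the large mannose 6-phosphate receptor that delivers hydrolases to the lysosome, was lower, at -1.24 ± 0.08 (limma adjusted p = 1.96e-10), Sort1, another sorting receptor, was higher by 0.31 ± 0.06 and Nagpa, which uncovers the mannose 6-phosphate tag, by 0.24 ± 0.05. Of 16 regulators 3 were higher and 2 lower, close to those shares of all genes. The lower ones were relatives of Tfeb, Tfec at -1.14 ± 0.16 (adjusted p = 1.49e-05) and Mitf at -0.39 ± 0.09 (adjusted p = 0.00392), while Tfeb itself was higher. Of 5 cystatins, inhibitors of cathepsins, Cst3 was higher, at 0.41 ± 0.04, and 4 did not pass. Of 12 autophagy genes 3 were higher, among them Map1lc3a at 0.48 ± 0.04, and 2 were lower, among them Sqstm1 at -0.47 ± 0.08 (SE).

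These lists also held calls where unstimulated B6 arrays entered. Of all genes 17.6% were higher and 12.7% lower between unstimulated BC-R3 and B6, and 12.9% and 9.49% for flagellin in B6. Between unstimulated BC-R3 and B6 18 of 27 further hydrolases were higher and 0 lower, 7 of 14 pump subunits were higher and 1 lower, and 8 of 16 regulators were higher and 2 lower. For flagellin in B6 15 of 27 hydrolases, 5 of 14 pump subunits and 9 of 16 regulators were higher, and 1 regulator was lower. Without the 4 high-cytokine arrays none of these genes passed in either comparison, and the differences were smaller for those named next. Galc, the galactosylceramidase, was higher by 0.96 ± 0.18 in unstimulated BC-R3 than B6 and by 0.92 ± 0.18 with flagellin in B6, and Pla2g15, a lysosomal phospholipase, by 1.05 ± 0.21 and 0.81 ± 0.21. Without those arrays the values were 0.39 and 0.35 for Galc and 0.49 and 0.25 for Pla2g15. Flcn, the folliculin that takes part in nutrient sensing at the lysosome and keeps Tfeb in the cytoplasm, was higher by 1.23 ± 0.17 and 0.82 ± 0.17, and by 0.73 and 0.32 without them. Tfec was lower, at -1.82 ± 0.32 and -1.40 ± 0.32, and so was Cst7, a cystatin known from immune cells, at -1.56 ± 0.27 and -1.49 ± 0.27 (SE). Without them Tfec was at -0.95 and -0.53 and Cst7 at -0.53 and -0.46. Both comparisons use the unstimulated B6 arrays.

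Between C3Bir and B6 with flagellin, a comparison without high-cytokine arrays, 4 of 27 hydrolases were higher and 0 lower, 2 of 14 pump subunits were higher and 1 of 12 sorting genes was lower. Of all genes 3.70% were higher and 2.93% lower there. Arsb was higher by 2.17 ± 0.09, Atp6v0e2 by 2.51 ± 0.17, Ifi30, the thiol reductase of antigen processing, by 0.61 ± 0.08, and Tcirg1, the a3 subunit of the pump, by 0.31 ± 0.06. Clcn7 was lower, at -0.71 ± 0.15, and Igf2r, at -1.14 ± 0.16 (SE). For the Cdcs1 allele 5 genes of the lists passed, all higher with the C3Bir allele, against the 1.30% of all genes: Fnip2 by 0.29, Atg5 by 0.24, Slc11a1 by 0.22, Ifi30 by 0.21 and Cln8 by 0.18. None of the 5 passed without the 4 high-cytokine arrays, where the differences were 0.26, 0.12, 0.15, 0.19 and 0.14 and limma's adjusted p was 0.377 to 0.640.

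Of the 34 genes 22 had more than 1 probe set with their symbol alone. The changes that passed numbered 95 over all comparisons, and 64 of them could be set against another probe set. Of 87 such readings 11 ran the other way. At an unadjusted p under 0.05 there were 6 of these, those of Ctsl in 3 comparisons, Lamp2 on 2 probe sets, and Ctsa, whose second probe set, at a mean of 7.93, gave -0.12 in the C3Bir background. All 6 were in comparisons of C3Bir with B6 or of the backgrounds, and why was not tested.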

How the data were processed

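RNA of 24 macrophage cultures was hybridised to Affymetrix arrays, 1 array per sample, in 8 groups of 3. The deposited values are log2 expression values per probe set, which the authors had processed and normalized before deposit; background correction, normalization and summary method are not given in the sources used here. Any compression of high or low values by those steps carries into the differences. The table held 45037 probe sets, of which 4 had no values, 932 matched several symbols, 9160 had no entry in the annotation and 34944 with 1 symbol were used. Of each gene the probe set with the highest mean was kept, which gave 18193 genes.

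A model with 1 mean per group was fitted to all genes with limma 3.58.1 in R 4.3.3 (lmFit, contrasts and eBayes, 16 residual degrees of freedom), with no filter on low values, and p-values were adjusted by Benjamini-Hochberg over all genes within a comparison. A gene was called at an adjusted p under 0.05. Intervals are 95% intervals of the moderated fit. The procedure was tested on simulated data with independent noise on each array. Those data held no outlying arrays and no mice shared between conditions, so the test does not cover either case.

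The genes and lists were chosen with earlier results of these data known. Values on every array were given for up to 5 called genes per comparison with the largest difference and for Atp6v0d2, Atp6v0d1, Ctsk, Acp5, Tfeb, Ctsl, Ctss and Lamp1; of the 7 further lists, up to 3 called genes per list and comparison were named. Other values named in passing were chosen after they were seen.

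Replicate numbers are shared between groups, but the labels do not tie them to a mouse. Unstimulated and flagellin arrays of the same number deviated together (correlation over 0.1) in all 3 pairs of C3Bir and of CB-R1, but in 1 of 3 pairs of B6 and 1 of 3 of BC-R3, 8 of 12 in all, so the numbers were not taken as pairs over the series. Averages over both conditions, for the background and for the Cdcs1 allele, took all arrays as independent. Their SE and p-values may therefore be too small. Alternatives were quantile normalization, subtraction of array medians, a filter at a mean log2 of 6, averaging all probe sets of a gene, the trend and robust options, the fit on the compared groups alone, a replicate block and leaving out each array. Leaving out the 4 high-cytokine arrays, leaving out array 1 of the unstimulated B6, BC-R3 and C3Bir groups, and a block within each strain were chosen after seeing the data.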

Additional observations from a re-analysis of the deposited data

Results flagged for a closer look

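For 10 genes the flagellin change differed between BC-R3 and B6 by a direct test of the difference (limma adjusted p under 0.05), with the change in BC-R3 minus that in B6 below 0. On the log2 scale it was -0.88 ± 0.20 for Npc1, -0.62 ± 0.16 for Atp6v1a, -0.53 ± 0.14 for Gusb, -0.52 ± 0.10 for Ctsl and -0.50 ± 0.13 for Gaa (SE). It was -0.44 for Lipa, -0.43 for Hexa, -0.39 for Lamp2, -0.37 for Ctsa and -0.27 for Psap. Without unstimulated arrays 2 and 3 of B6 and C3Bir 0 of the 34 genes passed, with 1 unstimulated B6 array left.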

How the results depend on the processing

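The counts below are of the 34 genes that passed with limma. For flagellin in B6 the count of 17 became 11 with quantile normalization, 0 on the compared groups alone and 0 without the 4 high-cytokine arrays. For unstimulated BC-R3 against B6 the count of 26 became 16, 0 and 0 under the same changes, and for the difference of the flagellin change between them the count of 10 became 2, 0 and 0. For C3Bir against B6 the unstimulated count of 16 became 7 on the compared groups alone and 2 without the high-cytokine arrays, and the flagellin count of 5 became 8 without them. Without array 1 of unstimulated B6, C3Bir and BC-R3 the counts were 4 for flagellin in C3Bir, 8 for flagellin in BC-R3, 12 for C3Bir against B6 with flagellin, 6 for unstimulated CB-R1 against C3Bir, 10 for the Cdcs1 allele, and 4, 26 and 2 for the differences of the flagellin change of C3Bir minus B6, BC-R3 minus B6 and CB-R1 minus C3Bir. The same fit gave 20 higher and 2 lower for flagellin in B6, and 26 higher and 2 lower for unstimulated BC-R3 against B6. With the mean of probe sets 1 passed for unstimulated CB-R1 against C3Bir and 2 for the allele, for which the filter on low values gave 1 and the trend and robust options 1. The mean of probe sets reversed Ctsl, from 0.44 to -0.43 between C3Bir and B6 with flagellin and from 0.46 to -0.33 between backgrounds. The fits without the high-cytokine arrays leave 1 unstimulated array in B6 and in C3Bir. The cause of the other changes was not tested.

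Leaving out each array gave 0 to 18 for flagellin in B6, 0 to 0 in C3Bir, 0 to 4 in BC-R3 and 0 to 0 in CB-R1. It gave 11 to 19 unstimulated and 3 to 4 with flagellin for C3Bir against B6, 13 to 26 and 0 to 0 for BC-R3 against B6, and 0 to 4 and 0 to 1 for CB-R1 against C3Bir. It gave 20 to 22 for the background, 0 to 5 for the allele, and 0 to 2, 0 to 23 and 0 to 0 for the differences of the flagellin change. The replicate block over all groups gave 21 for the background, 16 for flagellin in B6 and 26 for unstimulated BC-R3 against B6, and moved no count by over 1.5 times. With the replicate block within each strain, flagellin in B6 gave 18 and the difference of BC-R3 minus B6 gave 15. Quantile normalization shifted the median of all genes in a comparison by at most 0.0122 and subtraction of array medians by at most 0.0407. With 3 arrays a group, small differences could not be told from the spread between arrays.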
